A study of Arabidopsis thaliana with 24 samples.

Results

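AT5G06410, a DnaJ-domain protein of Arabidopsis thaliana, and AT4G17650, a protein related to the coenzyme Q-binding COQ10, were 2 of 691 genes that had a probe annotated with exactly 1 gene, among 3439 array probes in all. They were chosen because their transcripts moved in opposite directions between the sut2 mutant and wild type, and the difference between genotypes is therefore given as values with no test. AT5G06410 was read by probe 520 and AT4G17650 by probe 1277, 1 probe each, and neither gene was named on any probe with several genes. In a gene table of the TAIR10.1 assembly the genes lie on chromosomes 5 and 4, with 1 transcript each. In that table AT5G06410 overlaps an antisense RNA gene, AT5G01265, which had no probe with a name of its own. The strand and the part of the gene that probe 520 reads are not given, so signal of the gene and of its antisense partner cannot be told apart.

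Proteins with a DnaJ (J) domain are partners of Hsp70 chaperones: the J domain stimulates the ATPase of Hsp70, so that the chaperone closes on its substrate, and different J proteins direct Hsp70 to different compartments and clients. Coenzyme Q, or ubiquinone, is the lipid-soluble carrier that takes electrons from the dehydrogenases of the inner mitochondrial membrane to the cytochrome bc1 complex. In yeast, COQ10 is a mitochondrial lipid-binding protein with a START-type fold that binds coenzyme Q and is needed for normal respiration.

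Total RNA was measured in 12 columns of wild type and 12 of the sut2 mutant, both of the Wassilevskija ecotype, numbered 1 to 12 in each group. The labels describe the mutant as without SUT2, a sucrose transporter or possible sucrose sensor of the plasma membrane; they give no allele, tissue, age or growth condition. The deposited values were intensities on a linear scale, averaging 0.959 to 1.05 in a column, with between 4.25% and 7.94% of them listed at 0 in each column, and the column median was 0.338 to 0.425 in wild type and 0.231 to 0.284 in the mutant. Columns with consecutive numbers in a group resembled each other, with correlations of 0.12 to 0.55 after the group means were removed. Columns farther apart in number were not compared in this way, so a likeness particular to consecutive numbers is not shown. Numbers 1 to 6 stood apart from numbers 7 to 12 for AT5G06410 but not clearly for AT4G17650. Results are given for these divisions too, which no label names. Nothing in the labels says that columns came from separate plants. The p-values therefore cover only column-to-column spread, possibly technical, and the number of columns limits precision. No probe was named for SUT2 itself, so the genotype was not checked. No gene of the short marker lists used for green tissue, phloem, root, flower and seed had a probe of its own, and as the labels give no tissue, none was checked.

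AT5G06410 was lower in the mutant at all 12 numbers, as were 16.4% of all probes as deposited. In wild type its deposited intensity was lowest at 0.191, with a median of 0.619 and a highest value of 1.16. In the mutant it was listed at 0 in columns 3 and 6, and the other 10 columns lay between 0.0628 and 0.190 with a median of 0.153. Every mutant column thus lay below every wild type column as deposited, although the lowest wild type column and the highest mutant column all but touched. Such a complete separation downward was seen at 5.5% of all probes. Wild type exceeded the mutant of the same number by 2.31 to 7.15-fold, with a median of 5.23-fold, over the 10 numbers without a value at 0.

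The 24 values of AT5G06410 formed 4 blocks that did not overlap as deposited. Wild type numbers 7 to 12 were highest, from 0.842 to 1.16 with a median of 0.972. Wild type numbers 1 to 6 came next, from 0.191 to 0.395 with a median of 0.347. Mutant numbers 7 to 12 followed, from 0.141 to 0.190 with a median of 0.174, and were close together. Mutant numbers 1 to 6 were lowest, from 0 to 0.0895 with a median of 0.0675. The order was therefore genotype first and division second, and the neighbours nearest to each other were wild type numbers 1 to 6 and mutant numbers 7 to 12. After quantile normalization, which gives all columns the same distribution, these blocks did overlap, because wild type number 2 at a log2 intensity of -2.67 lay below all 6 mutant columns 7 to 12, which ran from -2.48 to -2.15.

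**Figure D1:**
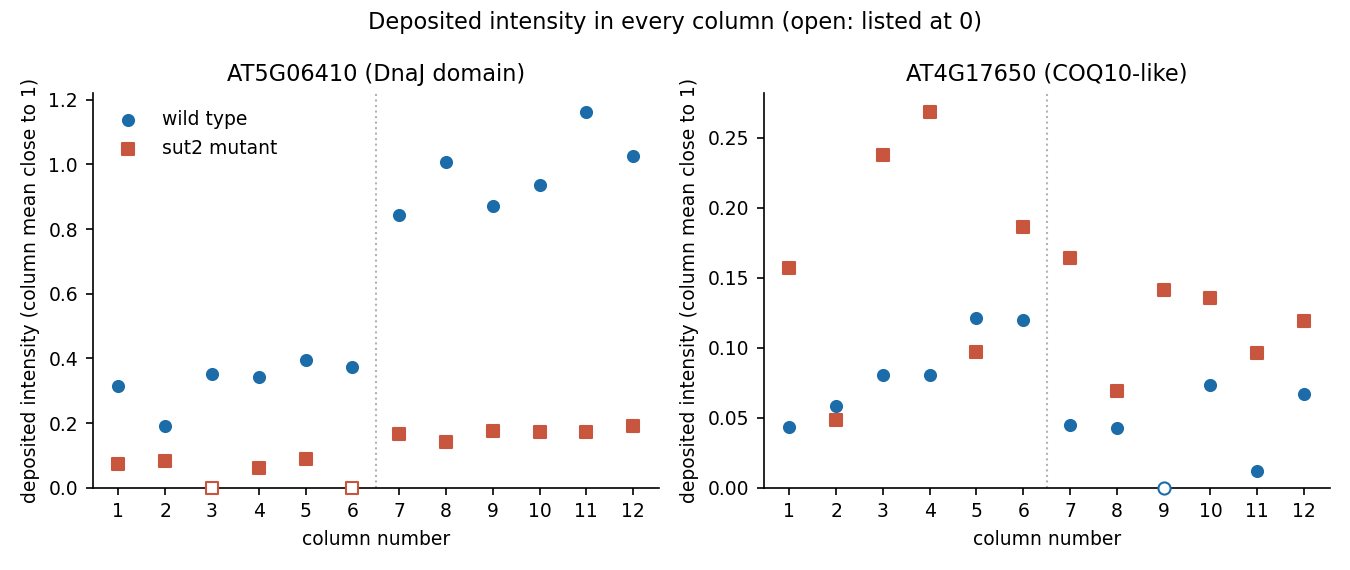
Deposited intensity (linear, column mean close to 1) of AT5G06410 and AT4G17650 in each of 12 wild type columns (blue circles) and 12 mutant columns (red squares), by column number; open symbols are values listed at 0 and the dotted line divides numbers 1 to 6 from 7 to 12. AT5G06410 is lower in the mutant at all 12 numbers and higher in numbers 7 to 12 of both groups, whereas AT4G17650 is higher in the mutant at 10 of 12 numbers.

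AT4G17650 was below the column median in all 24 columns, and higher in the mutant at 10 of 12 numbers as deposited. In wild type it was listed at 0 in column 9, had a median of 0.0628 over the 12 columns and was highest at 0.121. In the mutant it ran from 0.0482 to 0.268 with a median of 0.139 and was never at 0. The groups overlapped: 7 of the 12 mutant columns lay above all wild type columns, and 5 of the 12 wild type columns lay below all mutant columns. At numbers 2 and 5 the mutant was the lower, at 0.824 and 0.803 times the wild type intensity. Over the 11 numbers without a value at 0 the median ratio of mutant to wild type was 1.84, with a highest ratio of 8.23 at number 11, where the wild type value was 0.0117.

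That AT4G17650 was higher in the mutant at all 12 numbers held only relative to the rest of each column. Divided by its column's median intensity, it was higher in the mutant at 12 of 12 numbers, and so it was in rank. After quantile normalization 7.07% of all probes were higher in the mutant at all 12 numbers and 8.29%, among them AT5G06410, lower. In wild type between 0% and 17.8% of the probes of a column were lower than AT4G17650, and in the mutant between 12.0% and 48.9%. AT5G06410 outranked 27.1% to 81.0% of the probes in wild type and 0% to 38.1% in the mutant. The wild type level of AT4G17650 was near the lowest values the table holds, with 5 of 12 wild type columns below 0.0454, the 5th percentile of all positive values, against none of the 12 mutant columns. With no measure of background, a level this low cannot be told from it.

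For AT4G17650 the 4 blocks of columns overlapped, though in both genotypes the median was lower in numbers 7 to 12. Mutant numbers 1 to 6 had a median of 0.172 and mutant numbers 7 to 12 of 0.127. Wild type numbers 1 to 6 had a median of 0.0806 and wild type numbers 7 to 12 of 0.0437. Each neighbour in this order overlapped the next. The mutant columns 1 to 6 were the widest, from 0.0482 to 0.268, and held both the lowest and the highest mutant value.

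For the change between genotypes, a floor of 0.00971 was set, which is the 1st percentile of the intensities above 0, and the log2 values were quantile-normalized. The normalized log2 intensity of AT5G06410 averaged -1.10 ± 0.87 for wild type and -3.41 ± 1.62 for the mutant (SD, n = 12 columns), a difference of -2.31 ± 0.51 (SE), or 4.95-fold lower. The mutant SD includes the columns at 0. By number, the difference ran from -0.63 at number 2 to -4.82 and -5.12 at numbers 3 and 6. Without the values at 0 the difference was -1.66 ± 0.31, so the floor set part of its size. Mutant numbers 1 to 6, from 0 to 0.0895 as deposited, lay within the range of AT4G17650 in wild type, from 0 to 0.121. Such levels cannot be told from background, so the 4.95-fold is not a measured fold of transcript. AT4G17650 averaged -4.51 ± 0.96 for wild type and -2.72 ± 0.71 for the mutant (SD, n = 12 columns), a difference of 1.80 ± 0.33 (SE). As its wild type level cannot be told from background, this difference is not a measured fold of transcript. By number the difference of AT4G17650 ran from 0.48 at number 5 to 3.97 at number 9, where the wild type was at 0, and it was 1.61 ± 0.31 without that value.

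**Figure D2:**
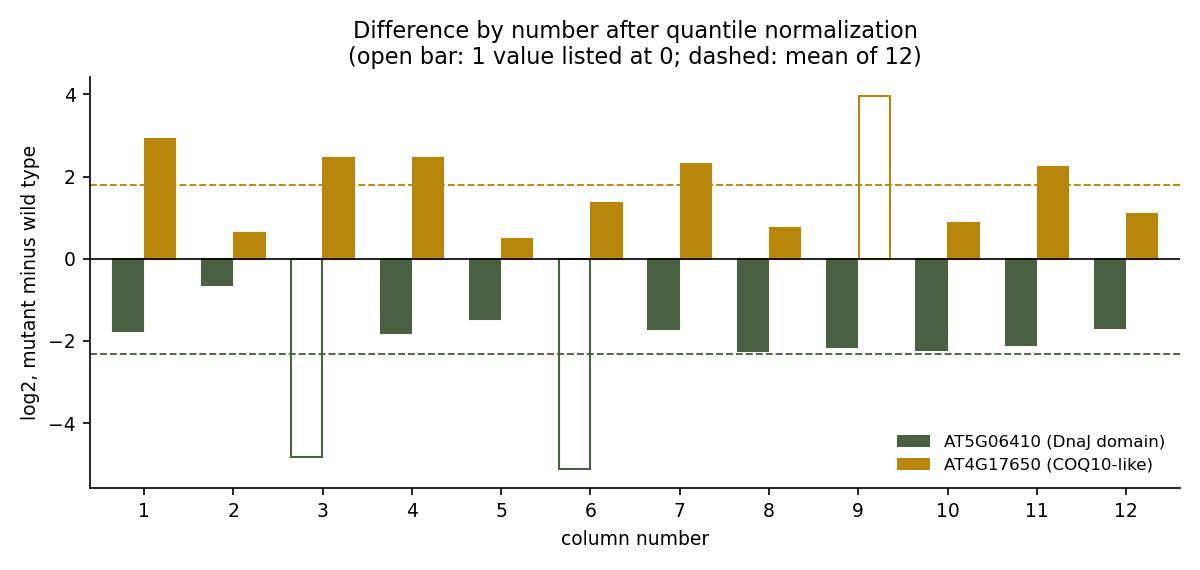
Difference in normalized log2 intensity, mutant minus wild type, for columns of the same number (bars), with open bars where 1 of the values was listed at 0 and dashed lines at the mean of 12 numbers. All 12 bars of AT5G06410 are below 0 and all 12 of AT4G17650 above it, and the longest bars of both genes are open.

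Among the 692 probes with 1 gene, AT5G06410 had the 8th lowest difference and AT4G17650 the 3rd highest. For AT4G17650 this place rests on a wild type level close to the floor, and for AT5G06410 in part on 2 mutant values at 0. The neighbours of AT5G06410 in this ranking were AT1G44920 (-2.39 ± 0.55) and AT4G35660 (-2.29 ± 0.41), and those of AT4G17650 were AT5G49120 (1.77 ± 0.59) and AT3G51320 (1.85 ± 0.51). Of all 3439 probes 0.727% had a lower difference than AT5G06410 and 0.262% a higher one than AT4G17650. The genotypes differed at many probes: by limma with an adjusted p of 0.05, 34.8% of all probes passed between the genotypes, 18.8% higher and 15.9% lower in the mutant. This share counts each column as a separate value. With consecutive numbers averaged, 449 probes passed in place of 1196. The split into higher and lower moved with the scaling of the columns, from 648 higher and 548 lower to 173 and 1016 without normalization and to 1053 and 506 with the column medians set equal. The median log2 difference of all probes moved with it, from 0.10 to -0.24 and 0.31. The differences of AT5G06410 were -2.79 and -2.25 under these scalings and those of AT4G17650 were 1.36 and 1.91, each with the sign it had after quantile normalization.

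**Figure D3:**
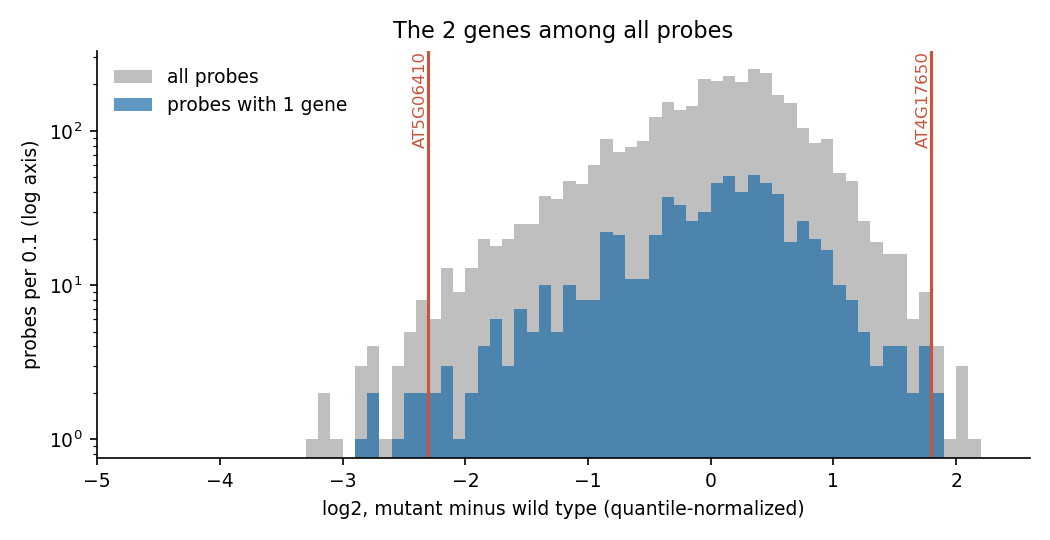
Histogram of the log2 difference (mutant minus wild type, quantile-normalized) of all 3439 probes (grey) and of the 692 probes with 1 gene (blue), on a log count axis; red lines mark the 2 genes. AT5G06410 at -2.31 and AT4G17650 at 1.80 stand near opposite ends of the distribution.

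The division of the columns was noticed in these same values, so the difference between divisions is given with no test. AT5G06410 was higher in numbers 7 to 12 than in numbers 1 to 6 in both genotypes, by 2.97-fold in mean deposited intensity in wild type and, over the columns above 0, by 2.21-fold in the mutant. With consecutive numbers averaged (6 values per group), the log2 difference between divisions was 1.86, and 1.33 without the values at 0. The median of all probes was -0.06, and 0.523% of them had a larger difference than AT5G06410. AT4G17650 had a log2 difference of -0.53 between the divisions, and of -0.86 to -0.37 under 8 other ways of processing.

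The gap between genotypes had the same direction in both divisions for both genes, and its change between them did not pass the test. For AT5G06410 the normalized log2 difference was -2.60 in numbers 1 to 6, which hold both mutant values at 0, and -2.01 in numbers 7 to 12. In deposited intensity over columns above 0, wild type exceeded the mutant by 4.27-fold in numbers 1 to 6 and by 5.73-fold in numbers 7 to 12. For AT4G17650 the log2 differences in the same divisions were 1.72 and 1.87. In deposited intensity over columns above 0, its mutant exceeded wild type by 1.97-fold in numbers 1 to 6 and by 2.52-fold in numbers 7 to 12. The test of the change in this gap (limma interaction term on averaged values) gave 0.59 for AT5G06410, with a 95% interval of -0.62 to 1.79 and an adjusted p of 0.80, and 0.16 for AT4G17650, with an interval of -1.22 to 1.54 and an adjusted p of 0.97. These intervals allow a change of the gap by more than 2-fold either way for AT4G17650, so equal gaps are not shown. Its estimate of 0.16 also depended on the scaling, and was 1.08 with the column medians set equal. With the averaged sets paired by number (replicate block) the adjusted p was 0.74 for AT5G06410 and 0.93 for AT4G17650. Of all probes 0.0291% passed the interaction test without the block.

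**Figure D4:**
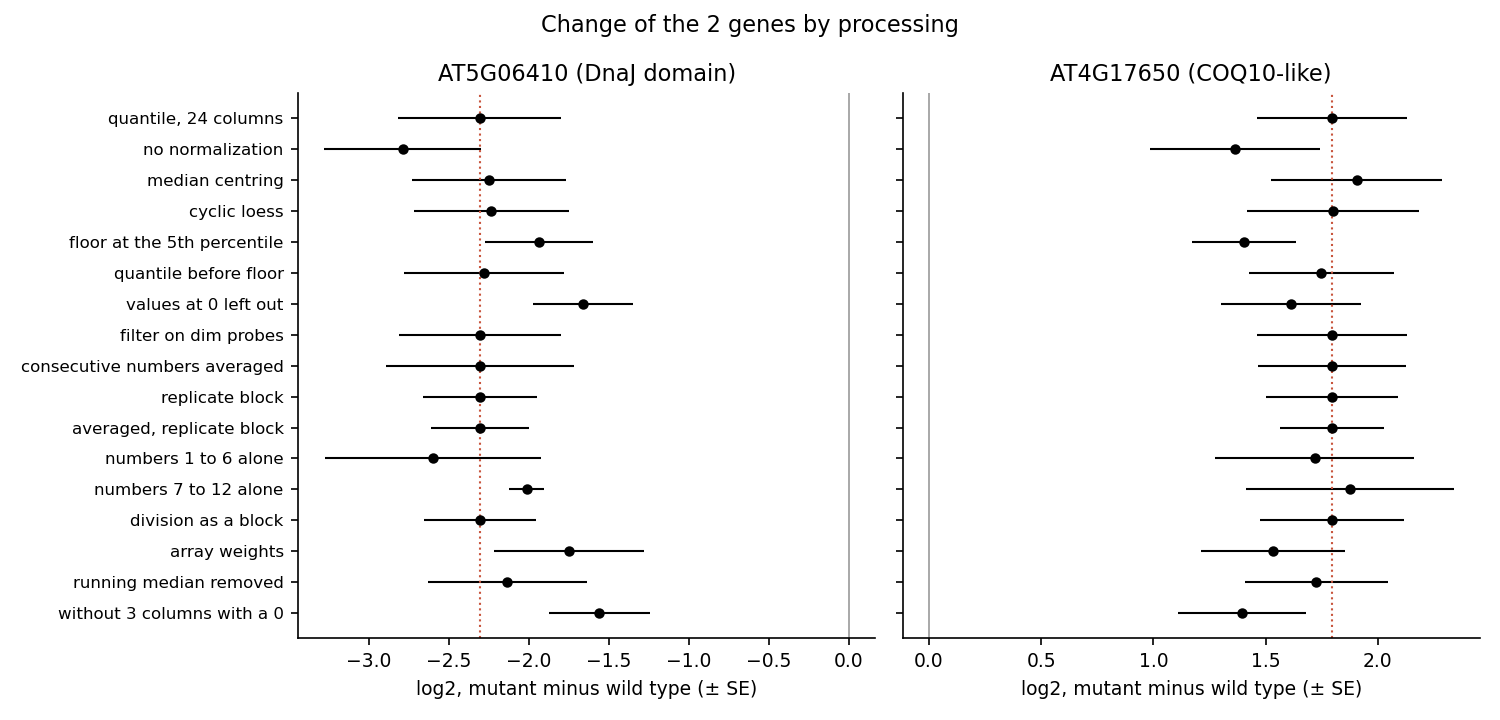
Log2 difference (mutant minus wild type, points, with SE bars) of AT5G06410 and AT4G17650 with quantile normalization of 24 columns (top, dotted line) and under 16 other ways of processing. AT5G06410 ranges from -2.79 to -1.56 and AT4G17650 from 1.36 to 1.91, and no point crosses 0. Averaging, blocks and the dim-probe filter can change only the SE.

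Few genes on the short lists drawn up for the pathways around these genes had a probe of their own. The lists are not complete, so this does not show that the pathways were absent. Of 21 other J proteins, 30 genes of iron-sulfur cluster assembly, which uses a J protein and Hsp70 in mitochondria, 10 genes of ubiquinone synthesis and 4 of the respiratory chain, none had a probe of its own, and 1 gene of ubiquinone synthesis was named on a probe with several genes. No named gene was described as a member of the START or polyketide cyclase family in the gene table, which holds names and synonyms only. The search of those names did not find AT5G06410 or AT4G17650 either, so it can miss other members. Of the Hsp70 and chaperonin list 2 members were measured, both subunits of the plastid chaperonin. Cpn60beta4 had deposited intensities of 0.0928 to 0.337 in wild type (median 0.234) and 0.0240 to 0.222 in the mutant (median 0.132), with groups that overlapped. Its log2 difference was -0.45 ± 0.31 (limma, adjusted p = 0.28), and it passed as lower only without normalization (-0.95, adjusted p = 0.017) among the 40 alternatives; without mutant number 8 alone it was -0.24. Cpn60beta3 had 0.225 to 0.501 in wild type and 0.144 to 0.423 in the mutant, and a log2 difference of 0.07 ± 0.18 (limma, adjusted p = 0.80), which turned to -0.43 without normalization (adjusted p = 0.057). ETFQO, which passes electrons from the electron-transfer flavoprotein to ubiquinone in mitochondria, was picked from its description and stood in none of the lists. It had 0 to 0.330 in wild type and 0.112 to 0.263 in the mutant, and a log2 difference of 0.69 ± 0.37 (limma, adjusted p = 0.15). Without wild type number 11, the column at 0, it was 0.34, and it was 1.46 in numbers 7 to 12 alone. With each column as a separate value, none of these 3 genes passed by limma, where 34.8% of all probes did, and 0 of 3 had an unadjusted p under 0.05, against 44.3% of all probes.

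The named gene most like AT5G06410 over the 24 columns of normalized values was AT1G50020, with a Pearson r of 0.93 (Spearman 0.93) among 690 genes compared, followed by AT1G29070 (r = 0.88), ribosomal protein L34 of the plastid, and AT3G56250 (r = 0.87). Part of this likeness is the genotype gap on which AT5G06410 was chosen. Over the deviations from the group means, which remove that gap, AT1G49870 (r = 0.89), AT1G50020 (r = 0.87) and AT1G54520 (r = 0.84) were nearest. Their Spearman coefficients were 0.84, 0.88 and 0.67. The median deposited intensity of AT1G50020 was 0.632 in wild type numbers 1 to 6 and 1.30 in wild type numbers 7 to 12, and 0.139 and 0.371 in the same mutant columns. The log2 difference between divisions was 1.26 for AT1G50020, 1.15 for AT3G56250, 1.11 for AT1G29070, 1.06 for AT1G49870 and 0.87 for AT1G54520, which is part of what made them alike. In mutant numbers 1 to 6, where AT5G06410 had its values at 0, AT1G29070 was at 0 in 3 columns and AT1G54520 in 2. Least like AT5G06410 over the 24 columns were NTRC, the plastid thioredoxin reductase with a thioredoxin domain (r = -0.75), AT5G55580 (r = -0.75) and AT2G18920 (r = -0.74). Over the deviations they were AT1G62780 (r = -0.65), AT3G16310 (r = -0.64) and AT1G07460 (r = -0.63).

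The named gene most like AT4G17650 was AT4G00170 (r = 0.83 over the 24 columns, Spearman 0.88), then AT1G02260 (r = 0.80) and AT1G31220 (r = 0.76). Part of this likeness is the genotype gap on which AT4G17650 was chosen, so a gap in AT4G00170 follows in part from how it was picked. AT4G00170 was far brighter on its own probe than the floor, from 0.748 to 1.16 in wild type and from 1.29 to 2.19 in the mutant. Its groups did not overlap as deposited. That held in this direction at 0.32% of all probes and downward at 5.5%, with column medians lower in the mutant. Least like AT4G17650 were PRA1.B6 (r = -0.82), AT5G56070 (r = -0.77) and AT1G29070 (r = -0.75), the last of which was also among the nearest to AT5G06410. Over deviations from the group means the likeness was weaker, with r = 0.55 for AT4G00170 and AT5G17840 and 0.52 for AT4G20300, and r = -0.62 for AT5G63460, -0.59 for AT1G09200 and -0.54 for AT3G53470. AT5G63460 was at 0 in 19 of the 24 columns. AT5G06410 and AT4G17650 themselves had r = -0.68 over the 24 columns, which holds the gap they were chosen on, and r = -0.36 over the deviations. These coefficients share columns, scaling and floor, and are given as descriptions.

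**Figure D5:**
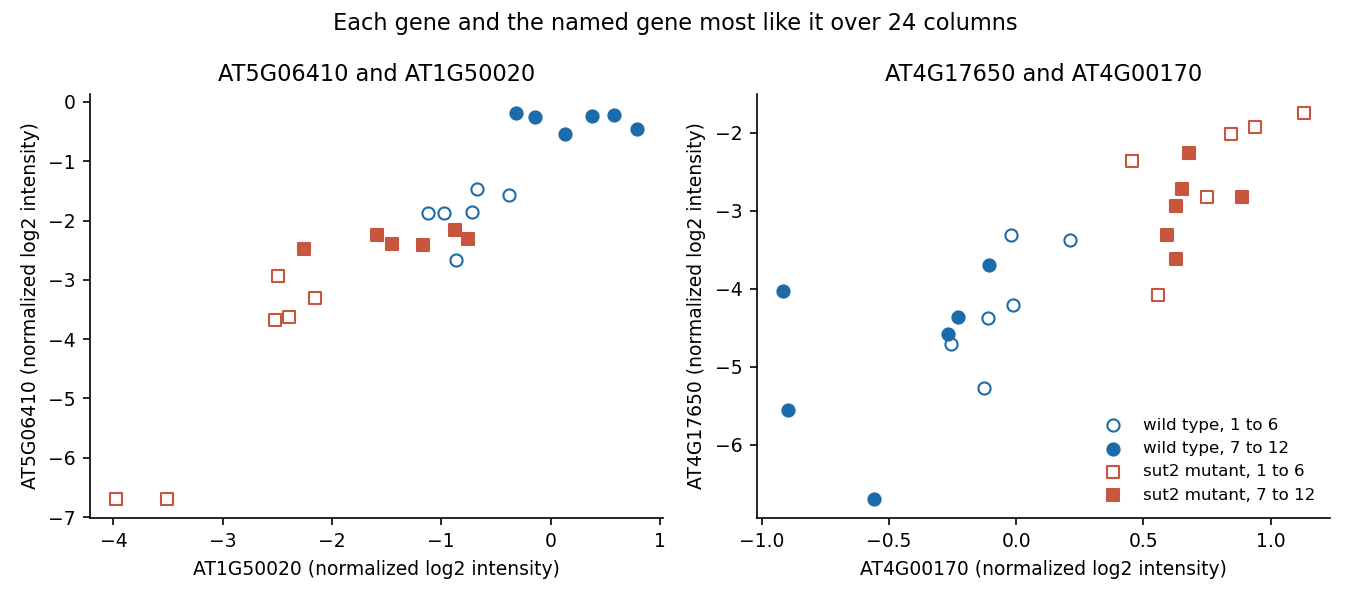
Normalized log2 intensity of AT5G06410 against AT1G50020 (left) and of AT4G17650 against AT4G00170 (right) in 24 columns, wild type as blue circles and mutant as red squares, open for numbers 1 to 6 and filled for 7 to 12. On the left the blocks follow each other along both axes with some overlap. On the right no mutant column overlaps a wild type column along AT4G00170, and the lowest point is the wild type column in which AT4G17650 was listed at 0. AT1G50020 and AT4G00170 were picked for likeness over these 24 columns, genotype gap included.

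Probes with numbers close to that of AT5G06410 also tended to be lower in the mutant. Of the 20 probes nearest in number, 10 on each side, 4 were higher and the median log2 difference was -0.49, against 0.10 over all probes. They include AT1G29070, 9 numbers away, with the lowest difference of the 20, -2.77. Around AT4G17650, 11 of 20 probes were higher, with a median of 0.09. Whether the numbers follow the position of probes on the array is not given, and the part of position in the result was not tested. With a running median over neighbouring probes in number order taken from each column, the differences were -2.14 for AT5G06410 and 1.73 for AT4G17650.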

How the data were processed

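The deposited table holds linear intensity values of 3439 probes in 24 columns, 12 per genotype; what the authors did to make these intensities, from image analysis to scaling, is unstated in the labels. Columns were grouped and numbered from the sample titles. The platform annotation gives 1 gene for 692 probes, several for 870 and none for 1877; symbols were updated through a TAIR10.1 gene table, where 690 of the 692 matched, and no coordinates are given because no build is named for the probes. Values were floored at the 1st percentile of positive values (0.00971), put on the log2 scale and quantile-normalized. limma 3.58.1 in R 4.3.3 was fitted to all probes, two-sided, with Benjamini-Hochberg adjustment over all probes and a threshold of 0.05. The fit was also run on simulated data with independent columns and no values at 0. That run does not vouch for the p-values here, where columns resemble each other and hold values at 0.

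Deviations of same-numbered columns from their group means correlated at all 12 numbers (0.14 to 0.40), which is read from the values, as no label states a pairing. Columns of different numbers were not compared across the groups, so pairing by number cannot be told apart from the divisions. The fits reported have no block; fits with the number as a block are alternatives. For consecutive numbers of a group these correlations were 0.12 to 0.55. No 2 columns were identical (highest correlation 0.95).

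The members, gene lists and divisions were chosen with earlier results of these data known. Named genes are the measured list members, the 3 genes most and least like each member by each measure, and the neighbours in rank; ETFQO was added. Alternatives changed the normalization, floor, values at 0, dim-probe filter, averaging, blocks, divisions, array weights and single columns; the running median, the removal of columns with a 0, the values by division, the block in the interaction and the repeats for Cpn60beta3, Cpn60beta4 and ETFQO were added after the data were seen.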

Additional observations from a re-analysis of the deposited data

How the results depend on the processing

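The log2 differences of AT5G06410 and AT4G17650 kept their sign under each of 40 alternatives. Of these, 24 only left out 1 column, and averaging, the blocks and the dim-probe filter cannot change the difference in this balanced design. None moved a difference by more than the residual SD between columns, a wide limit. That SD was 1.30 for AT5G06410, with the values at 0 included, and 0.84 for AT4G17650. The differences ran from -2.79 to -1.56 for AT5G06410 and from 1.36 to 1.92 for AT4G17650. Leaving out 1 column at a time gave -2.46 to -2.00 and 1.59 to 1.92. The size of the fall of AT5G06410 depends on the 2 mutant values at 0, and it was -1.56 without the 3 columns in which either gene was at 0, against 1.40 for AT4G17650. The count of probes past the threshold, 1196, was 449 with consecutive numbers averaged, 663 in numbers 1 to 6 alone and 759 with averaged numbers and the replicate block, and 1088 to 1227 without 1 column; the replicate block alone gave 1477 probes, -2.31 ± 0.36 for AT5G06410 and 1.80 ± 0.30 for AT4G17650, and changed no call of Cpn60beta3, Cpn60beta4 or ETFQO. The interaction with the division turned to -0.16 with a floor at the 5th percentile and to -0.40 without the values at 0 for AT5G06410, and to -0.18 with that floor for AT4G17650; none of the interaction tests of these 2 genes passed, with adjusted p from 0.71 to 0.97. Cpn60beta3 turned to -0.43 without normalization, -0.062 in numbers 1 to 6 and -0.080 with array weights, ran from -0.0058 to 0.15 without 1 column, and ETFQO turned to -0.084 in numbers 1 to 6; the cause was not tested. No measure of signal over background was used, which limits AT4G17650 most, and also AT5G06410 in mutant numbers 1 to 6.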
